A study of Prunus avium with 6 samples.

Results

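Predicted genes of sweet cherry (Prunus avium) described as acting in nitrate, ion and phosphate nutrition were followed in leaves and ripe fruits. They are an NRT1 PTR FAMILY-like transporter, a sodium hydrogen exchanger 8, a PLANT CADMIUM RESISTANCE 2-like gene and a purple acid phosphatase 3. The series has 43673 predicted genes, of which 16519 had at least 1 unique read (a read that matched a single predicted gene). The annotation rows used here cover 581 predicted genes, 427 with a description, and nutrition genes outside these rows were not searched for. The 4 genes were taken by name. They were picked with their unique reads over the 6 libraries already known, so their levels and ratios are given as a description and no p-value is attached to them.

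Total RNA of leaves and of fruits harvested at commercial maturity was sequenced by 454 FLX, and the labels give 2012 as the collection year. There was 1 library for each tissue of the cultivars ‘Bing’, ‘Lapins’ and ‘Rainier’. ‘Bing’ is a dark and ‘Lapins’ a red cultivar, whereas ‘Rainier’ is bicoloured. No treatment was applied, the labels give an age of 1 without a unit, and each cultivar came from its own Chilean site (Quillota, Los Andes and San Francisco de Mostazal), so cultivar and site cannot be told apart. Whether a library pooled several trees, and which parts of the fruit were taken, is not given in the sources used here.

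Plants take up nitrogen largely as nitrate and phosphorus as free phosphate, and move both to growing leaves and fruits by membrane transporters. NRT1 PTR FAMILY proteins carry nitrate, small peptides or plant hormones into cells together with protons. Sodium hydrogen exchangers swap protons for sodium, lithium or potassium, and in Arabidopsis exchanger 8 lies in the plasma membrane beside the related salt tolerance protein SOS1. PLANT CADMIUM RESISTANCE proteins are small membrane proteins, and in Arabidopsis the second of them moves zinc out of cells. Purple acid phosphatases are metal enzymes that free phosphate from organic phosphate esters, and several of them are induced by phosphate shortage.

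The libraries held 70058 to 89009 unique reads in leaf and 74371 to 116264 in fruit. A gene with 0 reads could therefore hold up to 3 reads, which is 0.258 to 0.428 reads per 10000 unique reads depending on the library. All intervals below are exact 95% intervals that cover counting error only. The 4 photosynthesis genes used as leaf markers summed to 14.2 to 23.8 reads per 10000 in leaf and to 0.357 to 1.08 in fruit. Of 7 reproductive and seed genes 3 had reads, with sums of 0.143 to 0.285 in leaf and 0.134 to 1.03 in fruit, and the single phloem gene had 0 reads in every library. In these bulk samples, fewer cells of a type and less RNA per cell cannot be told apart.

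All 4 genes lie on scaffold Pav_sc0000893.1, for which the files give the order of the genes but no base positions. The 581 annotation rows used here list 128 genes of that scaffold, 79 of them with reads and 48 with at least 10. Descriptions were at hand only for these rows, so nothing is read from the shared scaffold. No non-specific read was counted for any of the 4 genes, so unique and total reads were the same. The highest summed number of reads was 113 and the lowest 19. The transporter was read in both tissues with ratios that varied between cultivars, 1 gene was seen in leaf only, 1 in fruit only, and 1 was read in both with more reads in leaf.

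**Figure D1:**
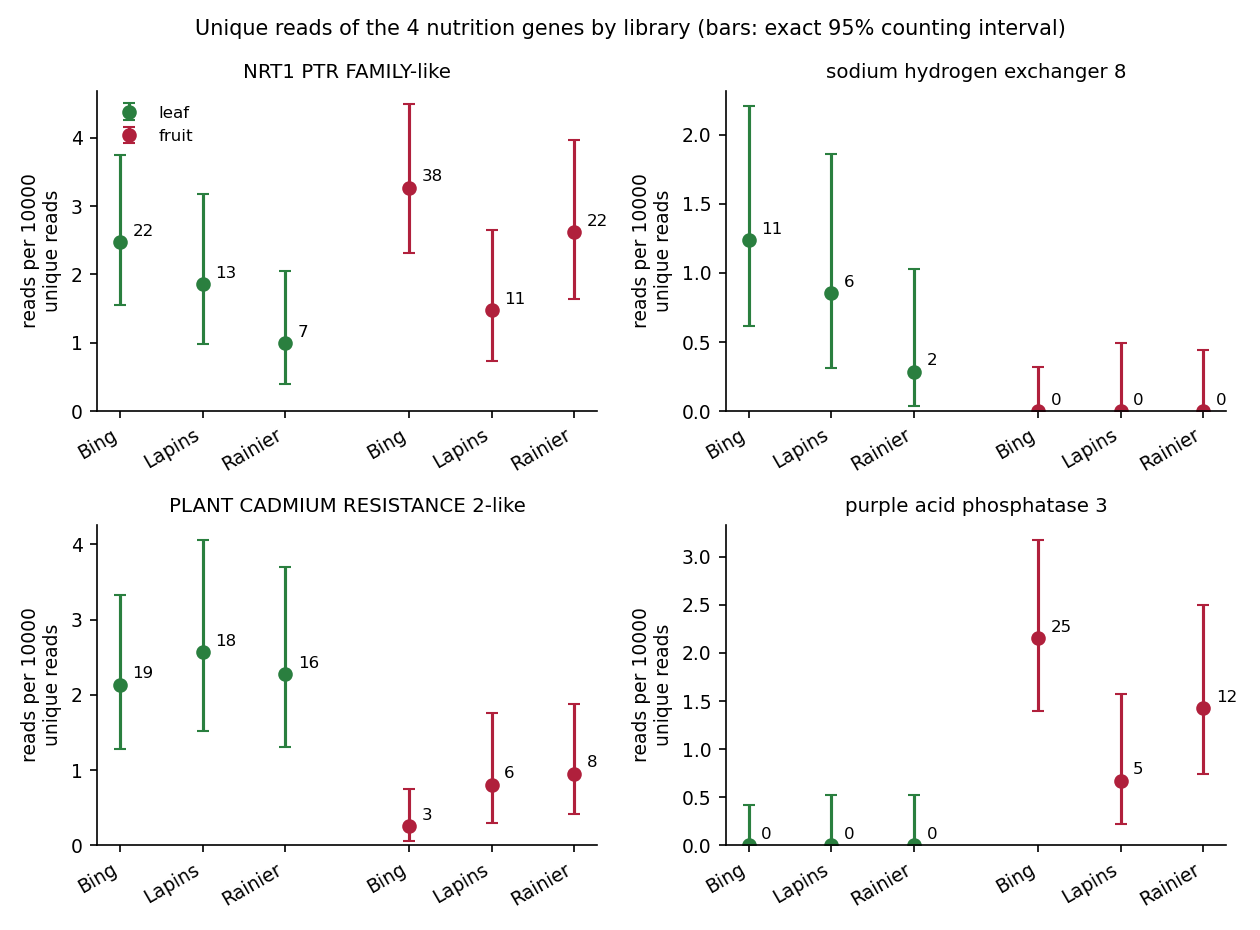
Unique reads of each nutrition gene per 10000 unique reads (vertical axes, linear and different in each panel) in the 3 leaf (green) and 3 fruit (red) libraries, with exact 95% counting intervals as bars and the number of reads beside each point. The exchanger has 0 reads in the 3 fruit libraries and the phosphatase 0 in the 3 leaf libraries, while the NRT1 PTR FAMILY-like gene has 7 to 38 reads in all 6.

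The NRT1 PTR FAMILY-like gene (Pav_sc0000893.1_g1130.1.mk, coding length 3327 bases) had the most reads of the 4. Its leaf reads numbered 22 for ‘Bing’, 13 for ‘Lapins’ and 7 for ‘Rainier’. Fruit gave 38, 11 and 22 in the same order. ‘Bing’ was highest in both tissues, and the lowest library was ‘Rainier’ in leaf but ‘Lapins’ in fruit. In leaf its share was 1.77 ± 0.741 reads per 10000 (SD, n = 3). The fruit share was 2.46 ± 0.906, and the 2 groups overlapped. Within single libraries the gene stood above 77.4% to 95.6% of the genes with reads.

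Summed over the cultivars, the share of the NRT1 PTR FAMILY-like gene in fruit was 1.41 times that in leaf (0.951 to 2.12). The ratio was 1.32 in ‘Bing’ (0.762 to 2.35), 0.797 in ‘Lapins’ (0.323 to 1.93) and 2.63 in ‘Rainier’ (1.08 to 7.28). The ratios as counted lay on both sides of 1, but the intervals of the cultivars overlapped, so a common ratio is not excluded. The only interval clear of 1 was that of ‘Rainier’, whose leaf library had 7 reads. In the edgeR fit across all tested genes, the log2 fold change of fruit over leaf was 0.36 with a standard error of 0.49. It was -0.03 without the ‘Rainier’ leaf library and 0.66 without the ‘Lapins’ fruit library.

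The sodium hydrogen exchanger 8 (Pav_sc0000893.1_g1030.1.mk, coding length 1131 bases) was a leaf gene in these reads. Its leaf reads numbered 11 for ‘Bing’, 6 for ‘Lapins’ and 2 for ‘Rainier’, with 0 in each of the 3 fruit libraries. The leaf share was 0.792 ± 0.479 per 10000 (SD, n = 3), with the ‘Rainier’ value of 0.285 below what 3 reads would give in that library. With 3 reads given to the fruit libraries together, leaf was at least 7.59-fold higher by the reads as counted, and the exact interval, which also covers counting error in the leaf reads, starts at 5.59. The fold against 3 reads fell to 4.37 without the ‘Bing’ fruit library, the deepest of the 6.

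With 3 reads given to each fruit library, the fold of the exchanger in leaf was 4.79 in ‘Bing’ and 2.12 in ‘Lapins’. The exact intervals for leaf over fruit start at 3.28 in ‘Bing’ and 1.25 in ‘Lapins’. The 2 leaf reads of ‘Rainier’ allow no such fold, and the interval there starts at 0.225. A difference between the tissues of ‘Rainier’ was not detectable at this depth. The photosynthesis markers ran the other way among the leaf libraries, lowest in ‘Bing’ at 14.2 and highest in ‘Rainier’ at 23.8 per 10000, and their part in the exchanger values was not tested.

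Reads in every leaf library and in no fruit library were found for 654 of the 16519 genes with reads (3.96%), and for 4.2% of those with at least 10 reads in all. The exchanger was picked on these reads, so nothing is read from its place among them. Its 19 reads stood above the median of 10 for those genes, and 159 of them had more. Annotation rows used here describe 9 of the 654.

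The PLANT CADMIUM RESISTANCE 2-like gene (Pav_sc0000893.1_g090.1.mk, coding length 630 bases) was read in all libraries and was higher in leaf. It had 19 reads in leaf of ‘Bing’, 18 in ‘Lapins’ and 16 in ‘Rainier’. In fruit it had 3, 6 and 8 reads in the same order. Every leaf library was above every fruit library, and among the fruits ‘Bing’ was lowest. The leaf share was 2.33 ± 0.221 per 10000 (SD, n = 3), and the fruit share 0.673 ± 0.366.

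The summed share of the PLANT CADMIUM RESISTANCE 2-like gene in leaf was 3.73 times that in fruit (2.13 to 6.88). By cultivar the ratio was 8.27 in ‘Bing’ (2.44 to 43.6), 3.18 in ‘Lapins’ (1.21 to 9.80) and 2.39 in ‘Rainier’ (0.966 to 6.46). The direction was the same in the 3 cultivars, the intervals of the cultivars overlapped, and that of ‘Rainier’ included 1. The edgeR log2 fold change of fruit over leaf was -1.96 with a standard error of 0.51. It moved to -1.48 without the ‘Bing’ fruit library, which held the fewest reads of this gene.

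In leaf the PLANT CADMIUM RESISTANCE 2-like gene stood above 92.0% to 93.4% of the genes with reads, and in fruit above 36.5% to 76.1%. Among all genes with reads, 13.2% had every leaf library above every fruit library, and 20.5% of those with at least 10 reads did. As with the exchanger, nothing is read from membership in that group. Per kilobase of coding sequence this short gene was the highest of the 4 in leaf, at 3.69 reads per 10000, against 0.701 for the exchanger and 0.533 for the NRT1 PTR FAMILY-like gene. The last 2 differed by less than the spread between the libraries of either.

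The purple acid phosphatase 3 (Pav_sc0000893.1_g840.1.mk, coding length 2145 bases) was the fruit counterpart of the exchanger in its pattern. Its fruit reads numbered 25 for ‘Bing’, 5 for ‘Lapins’ and 12 for ‘Rainier’, with 0 in the 3 leaf libraries. The fruit share was 1.42 ± 0.739 per 10000 (SD, n = 3). ‘Bing’ stood highest and ‘Lapins’ lowest, the same order as for the NRT1 PTR FAMILY-like gene in fruit. With 3 reads given to the leaf libraries together, fruit was at least 11.7-fold higher by the reads as counted, and the exact interval starts at 9.09. The fold against 3 reads was 7.15 without the ‘Bing’ leaf library.

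With 3 reads given to each leaf library, the fold of the phosphatase in fruit was 6.38 for ‘Bing’, 1.57 for ‘Lapins’ and 3.34 for ‘Rainier’. The exact intervals for fruit over leaf start at 4.82 for ‘Bing’, 0.863 for ‘Lapins’ and 2.32 for ‘Rainier’. The interval for ‘Lapins’ includes 1, so that its 5 fruit reads do not set the tissues apart by themselves. Among the reproductive and seed genes, POLLEN DEFECTIVE IN GUIDANCE 1 had 11 reads in the ‘Bing’ fruit library, 1 in that of ‘Lapins’ and 7 in that of ‘Rainier’, and a single leaf read. Its order among the fruits was that of the phosphatase. The other listed genes with reads were not higher in fruit, EMBRYO SAC DEVELOPMENT ARREST with 3 reads in leaf and 2 in fruit and cyclin-SDS with 1 and 0. The remaining 4 of the 7 genes had 0 reads throughout, and the part of such tissue in the phosphatase values was not tested.

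Reads in every fruit library and in no leaf library were found for 288 of 16519 genes (1.74%), and for 1.69% of those with at least 10 reads in all. Their median was 9 reads, and 23 of them had more than the 42 of the phosphatase. Per kilobase of coding sequence the fruit levels were 1.07 reads per 10000 for the PLANT CADMIUM RESISTANCE 2-like gene, 0.738 for the NRT1 PTR FAMILY-like gene and 0.661 for the phosphatase. None of these levels stood clear of the spread between libraries. That of the PLANT CADMIUM RESISTANCE 2-like gene ran from 0.410 in ‘Bing’ fruit to 1.51 in ‘Rainier’ fruit.

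**Figure D2:**
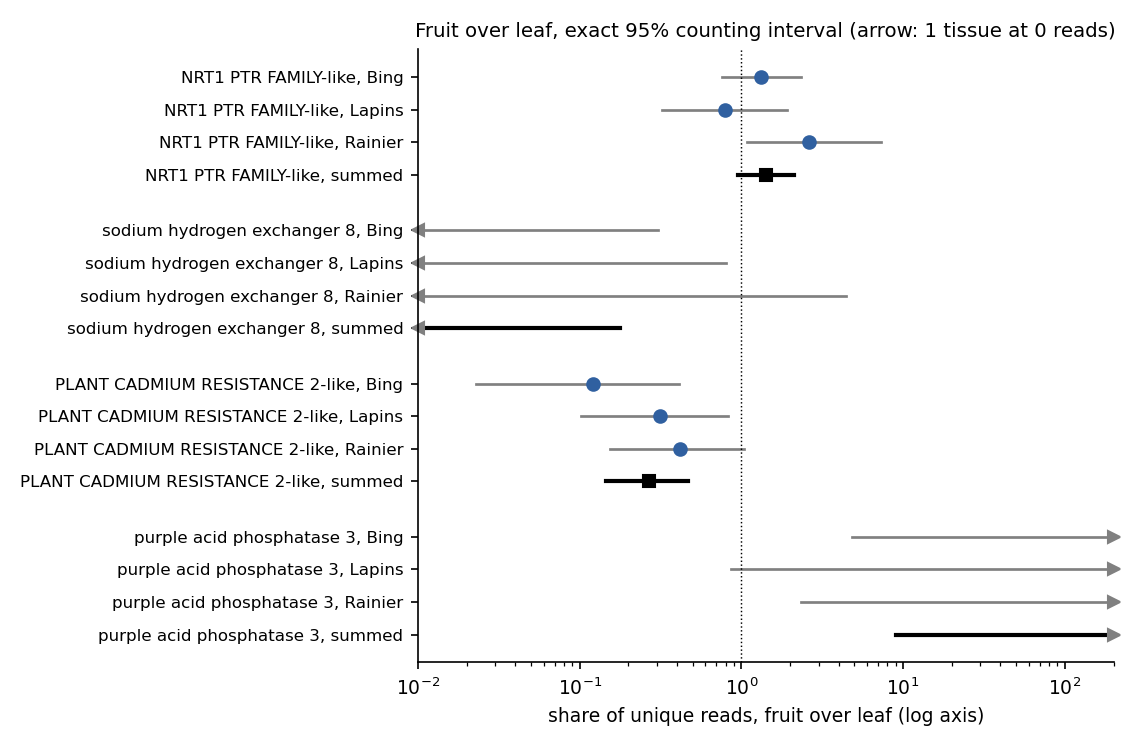
Ratio of the share of unique reads in fruit to that in leaf (horizontal log axis) for each nutrition gene, in each cultivar (blue circles) and summed over the cultivars (black squares), with exact 95% counting intervals as lines. Arrows mark ratios with 0 reads in 1 tissue, which have no point, and the summed values shown are 1.41 for the NRT1 PTR FAMILY-like gene and 0.268 for the PLANT CADMIUM RESISTANCE 2-like gene.

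Fruit and leaf were compared over all genes with edgeR's quasi-likelihood test, the 3 cultivars serving as the replicates of a tissue. After the filter on low counts 1864 genes were left, of which 362 were higher in fruit (19.4%) and 490 lower (26.3%) at a Benjamini-Hochberg adjusted p under 0.05. The filter asks for a level equal to 10 reads in a library of median size, in at least 3 libraries. It kept 2 of the 4 nutrition genes and left the exchanger and the phosphatase untested. The PLANT CADMIUM RESISTANCE 2-like gene passed it through its leaf libraries alone, and a gene kept in that way is bound to lean to leaf. It fell among the genes lower in fruit, which is no support for its difference. Without the filter 708 of 16519 genes were higher (4.29%) and 1249 lower (7.56%), and the phosphatase then counted as higher and the exchanger as lower. The genes were chosen on these reads, so nothing is read from either count.

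The pairs of cultivars were compared within a tissue by 3 criteria after those of the study. These are 10 or more reads, read here as in either library since the study does not say which, a 2-fold or larger ratio, and a p no higher than 0.05 in the test of proportions of Kal et al. There is 1 library on each side, so such a call compares libraries and not cultivars. Of 24 ratios of the nutrition genes, 14 had the reads needed and 4 met the criteria, all 4 with ‘Bing’ on the higher side. The ‘Bing’ library was the deepest of each tissue (89009 unique reads in leaf and 116264 in fruit), so the minimum of 10 reads is reached more readily in it. Over all genes with the reads needed, the criteria were met in leaf by 23.4% for ‘Bing’ against ‘Lapins’, 23.4% for ‘Bing’ against ‘Rainier’ and 21.1% for ‘Lapins’ against ‘Rainier’. In fruit these shares were 35.6%, 33% and 15.9%. In every pair more genes met the criteria as read here than the study lists. With 10 reads asked of both libraries, calls summed over the 3 pairs fell from 1554 to 464 in leaf. In fruit they fell from 2560 to 720. The 4 nutrition genes were chosen on the same reads, and nothing is read from their count.

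In leaf, the NRT1 PTR FAMILY-like gene was over-represented in ‘Bing’ against ‘Rainier’ with 22 against 7 reads, a ratio of 2.48 (1.02 to 6.87). The exchanger was over-represented in the same pair with 11 against 2 reads, a ratio of 4.34 (0.947 to 40.3). In that pair 13.4% of the genes with enough reads met the criteria with ‘Bing’ higher. With library sizes scaled by TMM the ratios were 2.26 and 3.95, and neither met the criteria.

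In fruit, ‘Bing’ stood above ‘Lapins’ in the NRT1 PTR FAMILY-like gene with 38 against 11 reads, a ratio of 2.21 (1.11 to 4.79). The phosphatase had 25 against 5 reads, a ratio of 3.20 (1.20 to 10.7). In this pair 21.4% of the genes with enough reads met the criteria with ‘Bing’ higher. With 10 reads asked of both libraries, the NRT1 PTR FAMILY-like gene in this pair was the only 1 of the 4 ratios left. None of the 4, in leaf or in fruit, met the criteria once the p was adjusted over all genes with reads.

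The other pairs of cultivars had ratios nearer to 1 or too few reads. Leaf ratios of the PLANT CADMIUM RESISTANCE 2-like gene were 0.831 for ‘Bing’ over ‘Lapins’ (0.413 to 1.68), 0.937 for ‘Bing’ over ‘Rainier’ (0.456 to 1.95) and 1.13 for ‘Lapins’ over ‘Rainier’ (0.543 to 2.36). These intervals leave room for differences of up to about the 2-fold criterion in either direction. In fruit the same gene had fewer than 10 reads in every library and was not compared. The phosphatase had a ratio of 0.665 for ‘Rainier’ over ‘Bing’ (0.304 to 1.37) and 0.470 for ‘Lapins’ over ‘Rainier’ (0.130 to 1.43). The latter passed the criteria on reads and on 2-fold size but not that on p. For the NRT1 PTR FAMILY-like gene, ‘Lapins’ over ‘Rainier’ was 1.86 in leaf (0.690 to 5.51) and 0.564 in fruit (0.247 to 1.21).

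**Figure D3:**
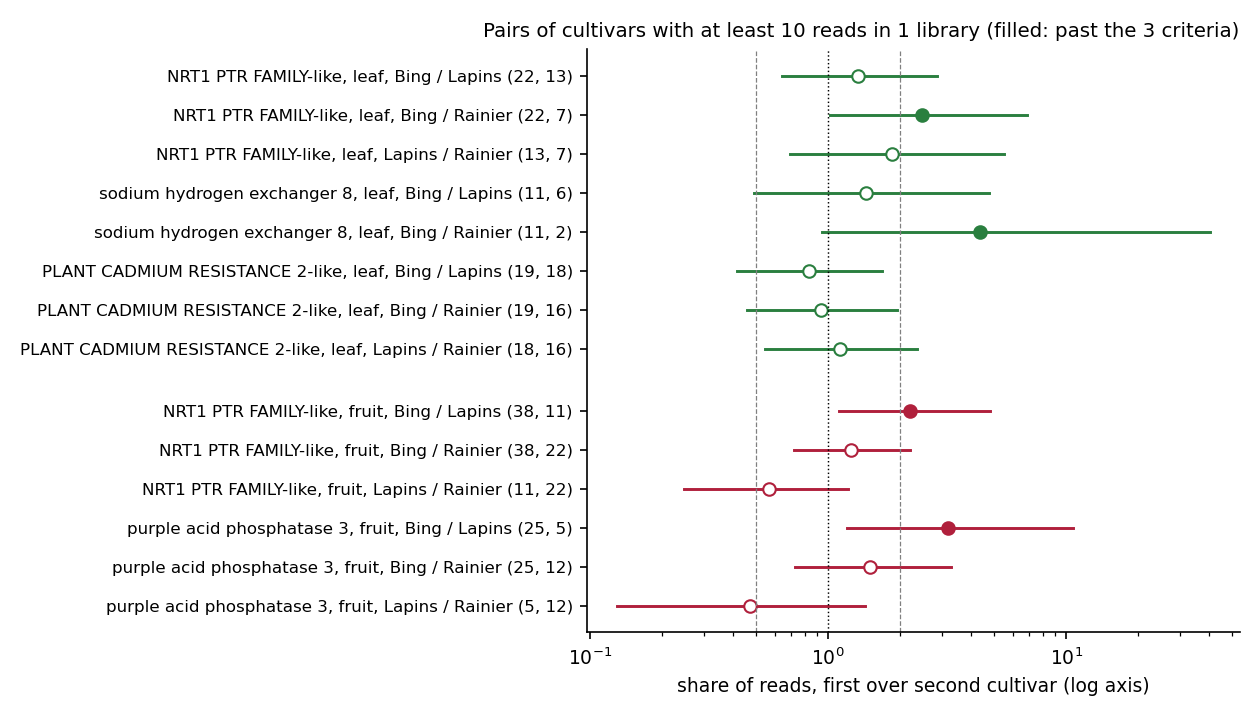
Ratio of the share of unique reads between cultivars (horizontal log axis) for the 14 pairs with at least 10 reads in 1 library, in leaf (green) and fruit (red), with exact 95% counting intervals as lines and the reads of both libraries in the labels. Filled points are the 4 ratios that met the 3 criteria, dashed lines mark a 2-fold difference, and the widest interval is that of the exchanger in leaf of ‘Bing’ over ‘Rainier’ (0.947 to 40.3).

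The annotation rows used here describe 427 genes, and no gene outside them was searched for by description. The other described genes of transport and nutrition were gathered by the words of their descriptions into 4 lists of 31 genes in all. Of these 18 had reads, 10 had at least 10 reads, and 13 had 0 reads in the 6 libraries. None of the 31 passed the filter of the edgeR fit, and so none was tested there. Without the filter 18 were tested, of which 1 was called higher in fruit and 1 lower, against 4.29% and 7.56% over all genes.

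Among 9 mineral nutrient and ion genes 5 had reads and 2 had at least 10. IAA-alanine resistance 1, a member of the zinc transporter family in Arabidopsis, had 10 reads in leaf and 12 in fruit, a fruit over leaf ratio of 1.00 (0.397 to 2.59). The heavy metal-associated isoprenylated plant 39-like gene, of a family of metal-binding proteins, had 18 and 21 reads and a ratio of 0.974 (0.494 to 1.94). Both ratios were close to 1, and both intervals reached about 2-fold on either side. Within these rows, a second NRT1 PTR FAMILY-like gene, the purple acid phosphatase 17, the potassium transporter 17 and a V-type proton ATPase subunit had 0 reads in every library.

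Among 11 genes of other solute and water transport 5 had reads and 4 had at least 10. The aquaporin PIP1-3, a water channel of the plasma membrane, had 7 reads in leaf and 27 in fruit, a ratio of 3.22 (1.37 to 8.76). The nucleobase-ascorbate transporter 3 had 16 and 44 reads, a ratio of 2.30 (1.27 to 4.36), with every fruit library above every leaf library. DETOXIFICATION 33, of the MATE family of exporters, had 32 and 9 reads, so that leaf was 4.26 times fruit (1.99 to 10.1). The THI74-like gene had 52 and 23 reads, and leaf was 2.71 times fruit (1.63 to 4.64). Leaf was above fruit in each library for the last 2 genes, and DETOXIFICATION 33 was the gene called lower without the filter (log2 fold change -2.06, SE 0.69, edgeR adjusted p = 0.0285).

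Of 5 calcium sensor and ion-related kinase genes 4 had reads and 2 had at least 10. The calcium-binding CML25, a calmodulin-like protein, had 0 reads in leaf and 3, 7 and 5 in fruit of ‘Bing’, ‘Lapins’ and ‘Rainier’, a fold of 4.17 against 3 leaf reads with an exact interval that starts at 2.99. It was the gene called higher without the filter (edgeR adjusted p = 0.0081). The CBL-interacting kinase 5-like gene, of a family that relays calcium signals to ion transporters, had 17 reads in leaf and 43 in fruit, a ratio of 2.11 (1.18 to 3.95). Every fruit library was above every leaf library for both genes.

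Of 6 other phosphatases 4 had reads and 2 had at least 10. The serine threonine phosphatase PP1, a protein phosphatase, had 27 reads in leaf and 21 in fruit, a fruit over leaf ratio of 0.649 (0.349 to 1.19), with every leaf library above every fruit library. The phosphatase 2C 60 had 17 and 11 reads, a ratio of 0.540 (0.229 to 1.22). Of the 18 listed genes with reads, 3 had every fruit library above every leaf library and 3 the reverse, where 10.2% and 13.2% of all genes with reads did so. All of these were among the 10 listed genes with at least 10 reads, and over all genes with that many the shares were 17.9% and 20.5%. The difference from these shares was not tested.

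Between cultivars, 3 ratios of the listed genes met the same criteria. The THI74-like gene had 11 reads in leaf of ‘Bing’ and 24 in ‘Rainier’, a ratio of 0.361 (0.160 to 0.766). The aquaporin PIP1-3 had 17 reads in fruit of ‘Bing’ and 3 in ‘Lapins’, a ratio of 3.62 (1.05 to 19.3), and so lay in the same direction as the 2 nutrition genes called in that pair. The CBL-interacting kinase 5-like gene had 18 reads in fruit of ‘Lapins’ and 9 in ‘Rainier’, a ratio of 2.26 (0.963 to 5.70). That interval includes 1, and 15.9% of genes met the criteria in this pair. None of the 3 met them with adjusted p.

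**Figure D4:**
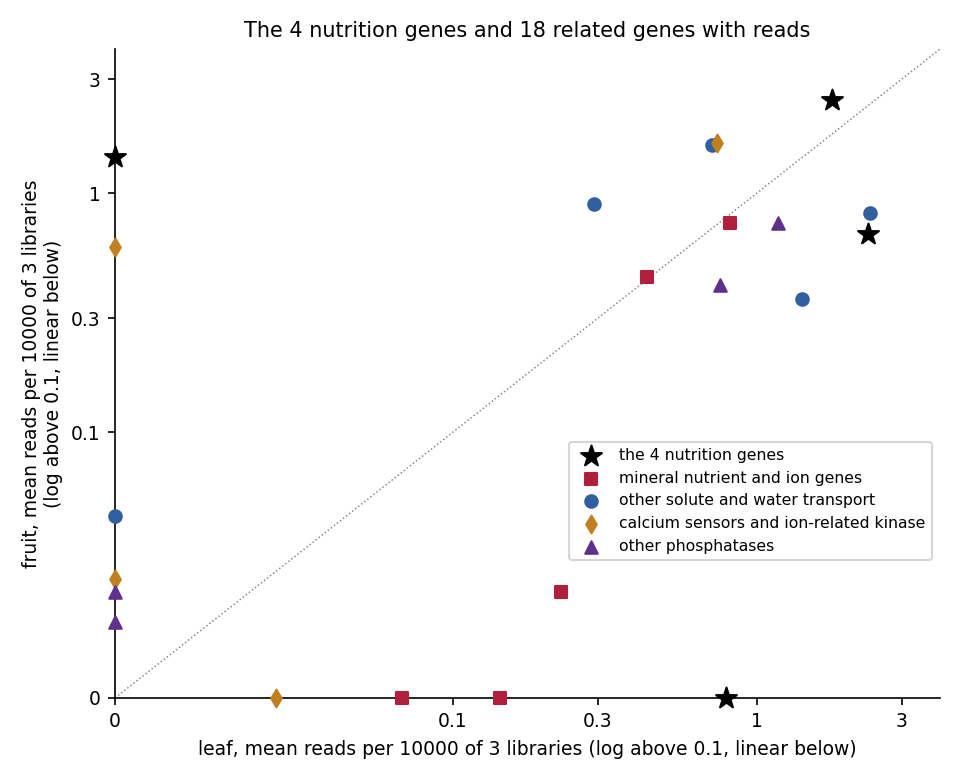
Mean reads per 10000 unique reads over 3 libraries in leaf (horizontal) and fruit (vertical), on axes that are logarithmic above 0.1 and linear below, for the 4 nutrition genes (stars) and the 18 listed genes with reads (other symbols by list). The dotted line marks equal levels, the 2 mineral nutrient genes with at least 10 reads lie close to it, and 2 of the stars lie on an axis because 1 tissue had 0 reads.

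Profiles over the 6 libraries were compared as the overlap of 2 genes' shares, each divided by its sum, so that a higher overlap means more similar profiles. Among the nutrition genes the overlap was 0% between the exchanger and the phosphatase, which were read in different tissues. It was 64.4% between the NRT1 PTR FAMILY-like and the PLANT CADMIUM RESISTANCE 2-like gene, and 64.2% between the latter and the exchanger. The overlap is a description over 6 libraries that differ mostly by tissue.

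Among the described genes with at least 30 reads, the profile most like that of the NRT1 PTR FAMILY-like gene was that of the SUMO ligase PIAL2 (overlap 91.0%), followed by a chloroplastic malate gene (89.4%). For the exchanger these were the BTB POZ gene At5g41330 (79.7%) and a thylakoidal processing peptidase (79.0%), both of which had some reads in each fruit library. For the PLANT CADMIUM RESISTANCE 2-like gene they were the SNAP33-like gene of membrane fusion (94.1%) and an alpha-ketoglutarate-dependent dioxygenase (88.4%). For the phosphatase they were the DNA repair helicase XPB1 (85.2%) and the cytochrome P450 CYP82D47-like (80.4%). An overlap of at least 90% was shared with the NRT1 PTR FAMILY-like gene by 105 of all genes with at least 30 reads (2.73%) and with the PLANT CADMIUM RESISTANCE 2-like gene by 51 (1.33%). For the phosphatase there were 12 such genes and for the exchanger 2.

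The described neighbours on the scaffold had varied profiles. Beside the NRT1 PTR FAMILY-like gene, the glutamate decarboxylase 4-like gene had 0 reads and the translation initiation factor 3 subunit I had 13 reads in leaf and 18 in fruit. Beside the exchanger, the transmembrane 9 superfamily member 3 had reads in all 6 libraries, from 3 to 9, and the potassium transporter 17 had 0. Beside the PLANT CADMIUM RESISTANCE 2-like gene, the endoglucanase 8 had 0 reads and a dynein light chain had 0 in leaf and 2, 8 and 5 in fruit, the opposite tissue. Beside the phosphatase, a prolyl 4- alpha subunit had 2 reads, in fruit of ‘Bing’, and the purple acid phosphatase 17 had 0.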

How the data were processed

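Per the study's methods, the authors trimmed 454 reads, mapped them in CLC Genome Workbench to predicted coding sequences of the genome (43673 genes), so reads outside coding sequence were not counted. They deposited raw counts of unique and of total gene reads per library. Files also hold TPM, not used here, and RPKM deposited with decimal commas (another unit per gene length), used only to recover coding lengths. Non-specific reads were 1.49% to 2.28% of a library.

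The genes and lists were chosen with earlier results of these data known. Shares are reads per 10000 unique reads of a library. Ratios carry exact Clopper-Pearson intervals, shares in figures exact Poisson intervals, and a fold against 0 reads used 3 reads. The tissues were compared by the quasi-likelihood test of edgeR 4.0.16 (R 4.3.3) after filterByExpr on tissue and TMM scaling, with Benjamini-Hochberg adjustment, and cultivars with the Z-test of Kal et al. on proportions, unadjusted, the test of the study's methods. That the read minimum applies to either library was a choice made here. Within a tissue the libraries came from different cultivars and sites, so edgeR p-values measure the spread between these libraries, cultivar and site included. The labels do not say whether leaf and fruit of a cultivar came from the same tree. Z-test p-values cover counting error alone. Both tissues share the cultivar, which pairs them. After removing tissue means, leaf and fruit correlated at 0.143 for ‘Bing’, -0.0404 for ‘Lapins’ and 0.0879 for ‘Rainier’, against -0.242 to 0.229 between cultivars.

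Genes were named by these rules: the 4 genes, listed genes with at least 10 reads, described neighbours, and for each gene the 2 described genes of at least 30 reads with the most similar profile. The listed genes at 0 reads, the markers and POLLEN DEFECTIVE IN GUIDANCE 1 were named after their values were seen. Descriptions came from 581 rows of the study's annotation table used here, 427 with a description. No identifier matched the RefSeq gene table.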

Additional observations from a re-analysis of the deposited data

Results flagged for a closer look

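The fruit over leaf ratio of the NRT1 PTR FAMILY-like gene lay on opposite sides of 1 in the cultivars, at 1.32 in ‘Bing’ and 2.63 in ‘Rainier’ but 0.797 in ‘Lapins’. Its ratio of ‘Lapins’ over ‘Rainier’ was 1.86 in leaf and 0.564 in fruit. For the PLANT CADMIUM RESISTANCE 2-like gene the ratio of ‘Lapins’ over ‘Rainier’ was 1.13 in leaf and 0.847 in fruit. Each value comes from 1 library on each side, and the differences between these ratios were not tested.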

How the results depend on the processing

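Of 180 values computed under an alternative, over 32 results, 143 stayed within the limits set for a change and 37 moved. A reversal could be labelled only for the log2 fold change of the PLANT CADMIUM RESISTANCE 2-like gene, which kept its direction. The limits were a fixed fold for counts and the counting interval for ratios. For log2 fold changes they were the SD between cultivars (0.864 and 0.937). Thus the NRT1 PTR FAMILY-like value of -0.03 without the ‘Rainier’ leaf library stayed within its limit. Total gene reads could hardly move the nutrition genes, which had no non-specific reads. The 143 is therefore no measure of stability. Without the filter on low counts, 708 genes were higher in fruit and 1249 lower, 1 listed gene was higher and 1 lower, and of the 4 nutrition genes 1 was higher and 2 lower. With cultivar as a replicate block, 357 genes were higher and 493 lower, and the block changed no call of the nutrition genes. Upper-quartile scaling moved the median log2 fold change of the tested genes from -0.0042 to 0.0992. Leaving out 1 library at a time, 309 to 465 genes were higher and 521 to 658 lower. Listed genes called lower numbered 0 to 2 (THI74-like and DETOXIFICATION 33) and nutrition genes called higher 0 to 1 (the phosphatase). The phosphatase, with 0 reads in leaf, passed the filter there through its fruit libraries alone, and was bound to lean to fruit. The nutrition genes were chosen on these reads, so nothing is read from their calls under any setting. The fold against 3 reads ranged for the exchanger from 4.37 to 9.78 and for the phosphatase from 7.15 to 14.1.

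For the pairs of cultivars, calls summed over the 3 pairs were 1554 in leaf and 2560 in fruit. With adjusted p they fell to 329 and 1001, listed genes to 0 and 0, and nutrition genes to 0 and 0. With 10 reads in both libraries they were 464 and 720, with 0 listed genes in fruit, and nutrition genes 0 in leaf and 1 in fruit. With 20 reads in at least 1 library they were 742 and 1390, with 0 listed genes in fruit and 1 nutrition gene in leaf. With TMM library sizes there were 0 nutrition genes in leaf and 1 listed gene in fruit, and with Fisher's exact test 1 listed gene in fruit. Levels under 3 reads, such as that of the exchanger in fruit, are limited by depth.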
